A study of Mus musculus with 22 samples.

Results

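The genes Avp, Oxt, Hcrt, Pmch, Agrp, Pomc, Trh, Crh, Ghrh and Gal encode peptide messengers of hypothalamic neurons. They are a listed set of 10 among the 20129 gene symbols read from the arrays. The rule names the genes and uses no measured value, although the list was drawn up with earlier results of these data known. Each of them had 1 probe with a RefSeq identifier, and each of the 10 was well above background somewhere in all 3 series. Total RNA of the whole brain was measured in 22 fractions of 3 male C57BL/6J mice, an inbred strain, with no further treatment given in the labels. The coronal series cut 1 brain into 10 fractions, the horizontal series cut a second brain into 6, and the sagittal series cut the remaining brain into 6. Each fraction was measured on 1 array, so each position in each plane has a single value and nothing here measures the difference between animals. The mice were 7 days old by the series title, the sample titles and the list of datasets in the methods, while the age field of the labels holds 3 days. The labels describe slabs of 100 slices of 5 µm each, whereas the study's methods give a greater thickness, so positions are given as fraction numbers only. Most fractions are 1 slab, but coronal fraction 10 pools slabs 10 and 11, sagittal fraction 1 pools slabs 1 and 2, and sagittal fraction 6 pools slabs 7 to 9. The labels do not give the direction in which fractions are numbered.

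The hypothalamus lies at the base of the brain around the third ventricle and controls water balance, feeding, sleep, growth, stress and reproduction. Its peptide neurons sit in separate nuclei. Magnocellular neurons of the paraventricular and supraoptic nuclei make vasopressin (Avp) or oxytocin (Oxt) and release them from the posterior pituitary. Neurons of the lateral hypothalamus make hypocretin, also called orexin (Hcrt), or melanin-concentrating hormone (Pmch). Neurons of the arcuate nucleus, on the floor of the ventricle, make agouti-related peptide (Agrp), pro-opiomelanocortin (Pomc) or growth hormone-releasing hormone (Ghrh). Thyrotropin-releasing hormone (Trh), corticotropin-releasing hormone (Crh) and galanin (Gal) are made in the hypothalamus and also in several other brain regions.

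A level is the log2 processed intensity of the gene's probe minus the 75th percentile of the same array, so a level of 0 equals that percentile. Levels are compared between fractions for 1 gene and not between genes, because probes differ in brightness. A share is a fraction's part of the linear signal summed over the fractions of a series, where a pooled fraction counts once. In such bulk RNA, fewer cells of a type and less RNA per cell cannot be told apart. The error quoted for a difference is the SD between repeated spots at like intensity on the same arrays, combined over both fractions. It holds neither labelling error nor the difference between animals, and for the members it lay between 0.07 and 0.23 log2 units in the steps compared. Between 29605 and 41965 of 55600 probes (53.2% to 75.5%) were well above background on an array. On 7 arrays the slope of the spike-in controls was marked out of range, namely coronal fractions 1 and 2, horizontal fractions 1 to 3 and sagittal fractions 1 and 3.

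The promoter sequences of the pairs Avp and Oxt, and Hcrt and Pmch, are shown because the first 2 genes are neighbours with related products, and the second 2 had the most alike levels through the 22 fractions. They are the 250 bases before the start of each gene in RefSeq (GRCm38.p6), 5′ to 3′ on the gene's own strand. Capitals mark ATAAA on the forward strand within the last 40 bases, and TGACC on either strand, which reads GGTCA when it is on the reverse one. Avp lies at chr2:130582589-130582838 on the minus strand, Oxt at chr2:130575919-130576168 on the plus strand, Hcrt at chr11:100762932-100763181 on the minus strand and Pmch at chr10:88090822-88091071 on the plus strand. The Oxt window lies inside the longer span that the RefSeq gene table gives for Oxt, which also counts a predicted transcript, so its start is that of the promoter table.
Avp: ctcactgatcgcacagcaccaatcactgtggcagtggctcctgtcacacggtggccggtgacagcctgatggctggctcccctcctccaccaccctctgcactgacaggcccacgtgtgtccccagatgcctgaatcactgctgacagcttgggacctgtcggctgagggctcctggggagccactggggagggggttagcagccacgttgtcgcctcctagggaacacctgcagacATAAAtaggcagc
Oxt: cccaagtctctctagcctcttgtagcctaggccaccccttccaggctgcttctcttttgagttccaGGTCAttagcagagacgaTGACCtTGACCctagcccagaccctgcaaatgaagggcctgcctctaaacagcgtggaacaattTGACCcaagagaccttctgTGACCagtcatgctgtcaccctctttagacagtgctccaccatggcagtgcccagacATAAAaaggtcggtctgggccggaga
Hcrt: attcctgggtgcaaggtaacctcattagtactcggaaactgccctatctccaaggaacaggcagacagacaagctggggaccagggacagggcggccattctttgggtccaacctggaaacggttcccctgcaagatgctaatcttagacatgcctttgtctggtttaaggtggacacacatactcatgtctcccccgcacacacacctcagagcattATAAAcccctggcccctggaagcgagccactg
Pmch: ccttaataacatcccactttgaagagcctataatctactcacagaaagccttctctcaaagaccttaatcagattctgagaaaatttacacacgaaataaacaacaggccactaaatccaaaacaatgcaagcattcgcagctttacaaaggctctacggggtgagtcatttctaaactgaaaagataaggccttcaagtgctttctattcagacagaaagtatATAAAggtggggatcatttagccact
All 4 windows held ATAAA in the last 40 bases, as did 5.50% of the 32851 promoters of the table. TGACC occurred 5 times in the Oxt window, 4 times forward and 1 time in reverse, and not at all in the other 3 windows. At least 5 occurrences were found in 0.0426% of all promoters and at least 1 in 35.2%. These are matches of letters and not binding sites. Avp and Oxt are neighbours on chromosome 2 and point towards each other, with 0 genes listed between them. The longest run shared by their windows was 10 bases, CAGACATAAA, and it begins 18 bases before the start of Avp and 31 bases before that of Oxt. Hcrt and Pmch shared no run longer than 8 bases.

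The peptides divided by plane of section. Of the 10 genes, 6 had their highest coronal level in fraction 6 (Avp, Hcrt, Pmch, Agrp, Pomc and Ghrh), where 7.21% of all 39621 probes tested were highest. Oxt was highest in coronal fraction 7, against 5.39% of all probes, Trh in fraction 10, against 11.8%, and Crh and Gal in fraction 1, against 6.77%. In the horizontal series, 7 were highest in the last fraction, number 6 (Avp, Oxt, Agrp, Pomc, Trh, Ghrh and Gal), against 14.9% of all probes, and the other 3 (Hcrt, Pmch and Crh) in fraction 5, against 16.0%. In the sagittal series, 4 were highest in fraction 4 (Oxt, Agrp, Ghrh and Gal), against 6.8% of all probes, and 4 in fraction 3 (Avp, Hcrt, Trh and Crh), against 13.4%. Pmch was highest in sagittal fraction 5, against 7.76% of all probes, and Pomc in fraction 6, against 33.8%, the largest share of the series. The SD of a gene's level over the 22 fractions had a median of 1.41 for the 10 genes and 0.525 for all probes tested, and for 9 of the 10 genes it was above the latter.

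**Figure D1:**
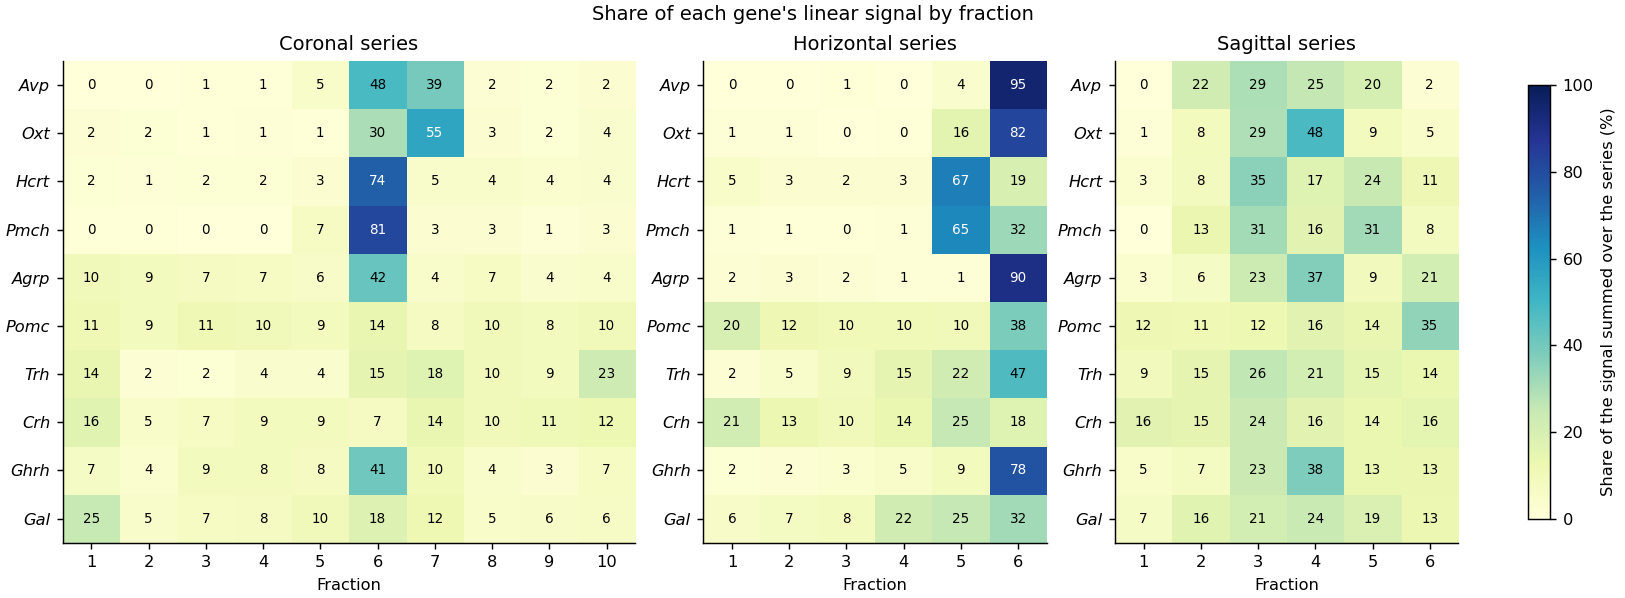
Share (%) of each gene's summed linear signal in each fraction of the coronal, horizontal and sagittal series, 1 array per cell. Horizontal fraction 6 held 94.9% of the Avp signal and 90.4% of the Agrp signal, coronal fraction 6 held 81.5% of the Pmch signal, and Crh was spread over all fractions.

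Position along each series was tested in limma by a linear and a quadratic term over all 22 arrays, with Benjamini-Hochberg adjusted p-values over all 39621 probes. Coronal position was called for 1 of the 10 genes, Avp, against 19.8% of all probes. Horizontal position was called for 4 of 10 (Avp, Pomc, Ghrh and Trh), against 6.57%. The linear term of the sagittal series, which follows the brain from side to side, was called for 1 of 10 (Pomc), against 10.2%, and the quadratic term, middle against sides, for 0 of 10, against 0.0303%. Without adjustment, p was under 0.05 in limma for 2, 8, 1 and 3 of the 10 genes in these tests, against 38.8%, 38.0%, 24.1% and 14.8% of all probes. All 4 horizontal calls were lost in limma with the a107 spike-in as a covariate (adjusted p from 0.0972 to 0.238), the arrays of the series alone (0.181 for each) or a linear term alone (0.0509 to 0.490). Over all 39621 probes these settings left 38, 0 and 206 horizontal calls, against 2604 in the main fit, so the loss was not particular to these genes. The fitted curves are smooth, and the residual SD around them was 2.06 log2 units for Pmch and 1.46 for Hcrt, whose signal lay mostly in 1 coronal fraction.

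Vasopressin and oxytocin shared coronal fractions 6 and 7 and the last horizontal fraction. Avp, which encodes the antidiuretic hormone, had levels of 2.83 and 2.52 in coronal fractions 6 and 7, a median of -1.79 over the series and a lowest value of -6.35 in fraction 1. Fractions 6 and 7 together held 87.3% of its coronal signal. Its probe was close to background in the first 2 fractions (not well above it), and fraction 6 was at least 381-fold above fraction 1. Its coronal position was called in limma (adjusted p = 0.0089), but not with the arrays whose spike-in slope was in range (adjusted p = 0.166), with slide as a block (0.0581), with normexp background correction (0.0617), with the series alone (0.0794) or with a linear term alone (0.192). Over all 39621 probes these settings gave 4129, 1598, 9192, 635 and 2821 coronal calls, against 7855 in the main fit. Coronal fractions 6 and 7 were on the same slide.

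In the horizontal series Avp had levels of -2.92, -4.72, -2.14, -4.04, 0.83 and 5.39 from fraction 1 to 6, and only the last 2 lay above the 75th percentile. Fraction 6 was 4.56 log2 units above fraction 5 (spot error 0.10, a 23.6-fold difference) and held 94.9% of the signal. Limma called its horizontal position (adjusted p = 0.0231). The call was lost in limma without horizontal fraction 1 (adjusted p = 0.0706), 2 (0.0636), 5 (0.0588) or 6 (0.227), and with the in-range arrays only (0.630). Over all 39621 probes the horizontal calls fell from 2604 to 9, 569, 396, 1115 and 13 under these settings, so the loss was not particular to Avp. Those in-range arrays are fractions 4 to 6, and Avp was 9.42 log2 units higher in fraction 6 than in fraction 4 among them.

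Across the sagittal series Avp was broad, with levels of -5.14, 0.83, 1.24, 1.03, 0.70 and -2.48 from fraction 1 to 6. Fractions 2 to 5 lay within 0.54 log2 units of each other, and fraction 1 was not well above background. The quadratic term of Avp had the smallest adjusted p of the 10 genes (limma, adjusted p = 0.109), which missed the threshold.

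Oxt, which encodes the hormone of milk ejection and labour, was well above background in all 22 fractions. Its coronal levels were 2.21 in fraction 6 and 3.11 in fraction 7, with a median of -1.66 and a lowest value of -3.39 in fraction 5. Fraction 7 was thus 0.90 log2 units above fraction 6 (spot error 0.08), whereas Avp was 0.30 lower there (spot error 0.09). Between them the 2 fractions held 85.2% of the coronal Oxt signal. Coronal position was not called (limma, adjusted p = 0.440).

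Horizontal Oxt levels were -2.01, -1.84, -3.32, -2.91, 2.21 and 4.59, so the last 2 fractions stood apart from the first 4. Fraction 6 was 2.39 log2 units above fraction 5 (5.23-fold), a smaller step than that of Avp, and fraction 5 held 15.6% of the Oxt signal against 4.03% of the Avp signal. Limma gave an adjusted p of 0.0559 for horizontal position, which was called under 6 of 15 other settings and in 3 of 22 fits without 1 array. In the sagittal series Oxt was narrower than Avp, with levels of -3.12, -0.60, 1.22, 1.94, -0.54 and -1.35. Fraction 4 held 47.8% of the signal and was 2.48 log2 units above fraction 5 (5.58-fold), while Avp differed by 0.33 between the same fractions. The difference between Avp and Oxt was not tested, as there is 1 array per fraction.

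**Figure D2:**
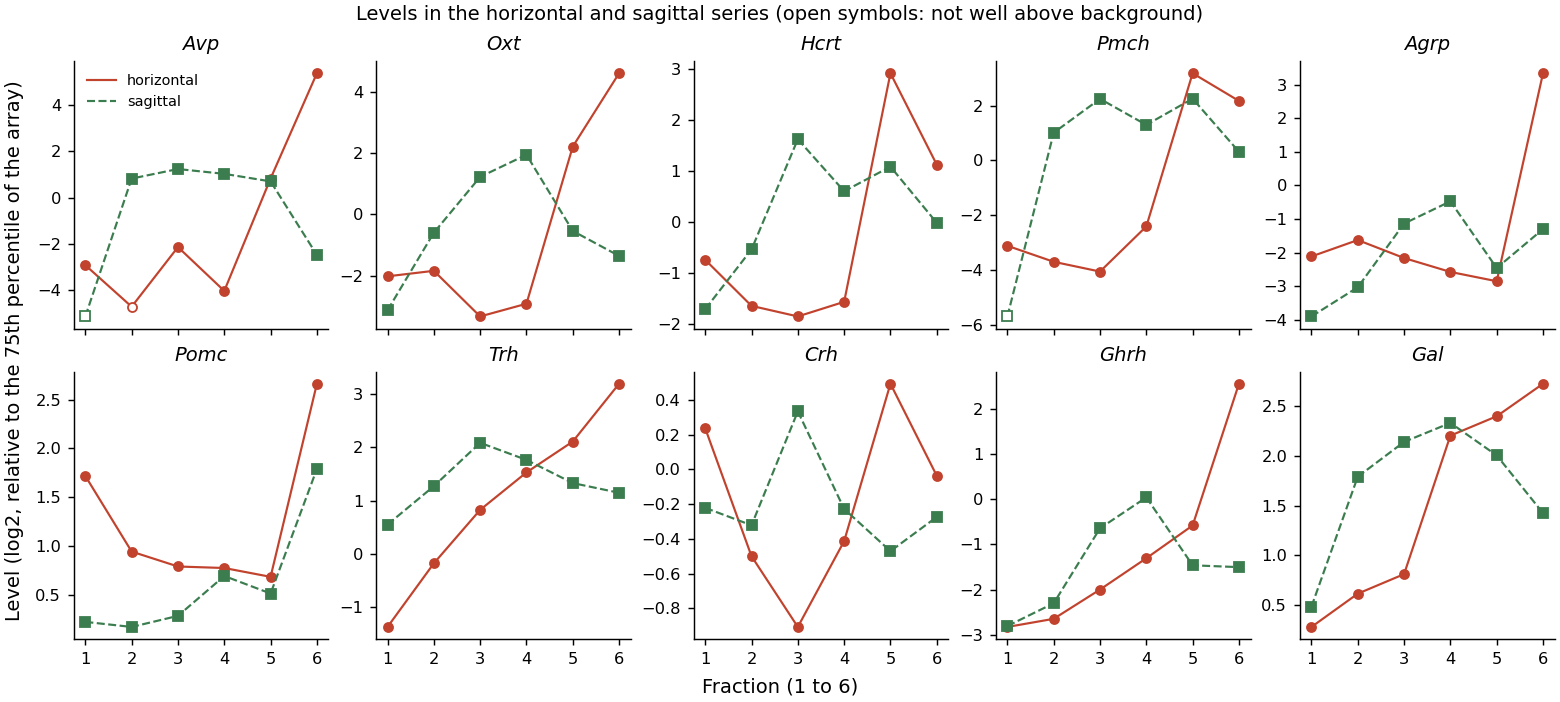
Level (log2, relative to the 75th percentile of the array) of each gene in the 6 horizontal fractions (circles, solid line) and the 6 sagittal fractions (squares, dashed line), 1 array per point, with open symbols where the probe was not well above background. Each panel has its own vertical scale. Avp, Agrp and Ghrh were highest in horizontal fraction 6, Hcrt and Pmch in fraction 5, and in sagittal fraction 4 both Hcrt and Pmch lay below fractions 3 and 5.

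The 2 peptides of the lateral hypothalamus shared 1 coronal fraction. Hcrt, whose product sustains wakefulness, had a coronal level of 3.47 in fraction 6 and between -2.88 and -0.55 in the other 9. Fraction 6 held 74.2% of its signal and was 4.02 log2 units above fraction 7, the next highest (spot error 0.10, 16.2-fold). Pmch, whose product promotes feeding and sleep, had a level of 3.56 in the same fraction, -0.05 in fraction 5 and at most -1.17 elsewhere. For Pmch, fraction 6 held 81.5% of the signal and lay 3.61 log2 units above fraction 5 (12.2-fold). Neither coronal position was called (limma, adjusted p = 0.239 for Hcrt and 0.170 for Pmch).

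**Figure D3:**
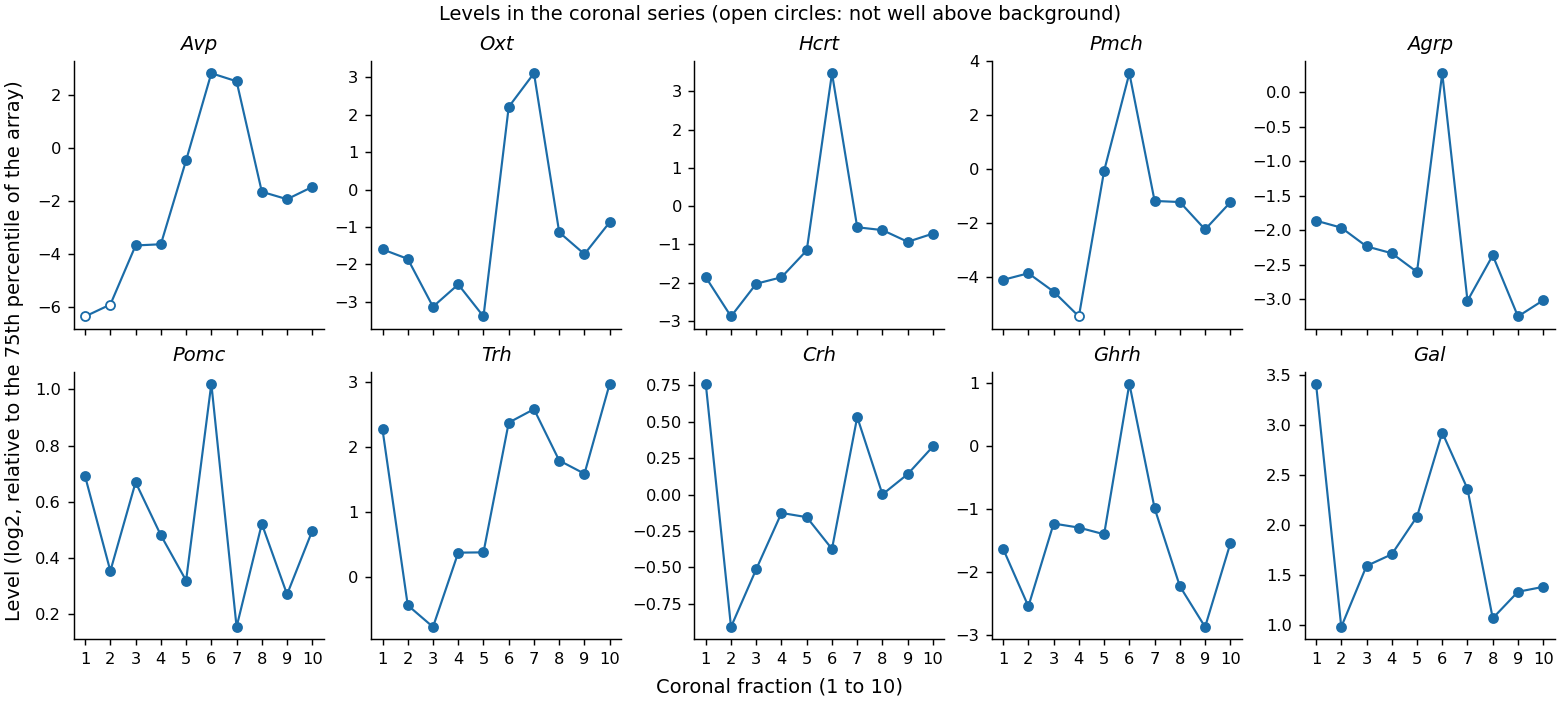
Level (log2, relative to the 75th percentile of the array) of each gene in coronal fractions 1 to 10, 1 array per point, with open circles where the probe was not well above background. Each panel has its own vertical scale. Hcrt and Pmch stood out in fraction 6 alone, Avp in fractions 6 and 7, Oxt in fractions 7 and 6, and Trh was highest in fraction 10.

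Both genes were also highest one horizontal fraction before the last. Hcrt had horizontal levels of -0.75, -1.65, -1.86, -1.57, 2.92 and 1.12, and Pmch of -3.11, -3.69, -4.05, -2.40, 3.18 and 2.17. Fraction 6 lay below fraction 5 by 1.80 log2 units for Hcrt (spot error 0.10) and by 1.01 for Pmch (spot error 0.10). This step was upward for 7 of the other 8 genes and downward for Crh, and all 10 steps exceeded 2 spot errors and kept their sign under the 4 other scalings tried. Horizontal position was not called for either (limma, adjusted p = 0.191 for Hcrt and 0.0921 for Pmch).

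In the sagittal series both genes had a dip in the middle. Hcrt levels were -1.72, -0.54, 1.63, 0.60, 1.09 and -0.02 from fraction 1 to 6, and Pmch levels were -5.68, 1.01, 2.24, 1.30, 2.25 and 0.32. Fraction 4 lay below fraction 3 by 1.02 for Hcrt and 0.95 for Pmch, and below fraction 5 by 0.48 and 0.96, with spot errors of 0.07 to 0.09. No other member was lower in fraction 4 than in both of its neighbours. The 4 steps kept their sign under normexp, median centring, quantile normalization and no scaling. The array of fraction 3 had its spike-in slope out of range and those of fractions 4 and 5 did not, so the step from 4 to 5 lies within the in-range arrays. Fraction 4 lay above fraction 2, which was also in range, by 1.14 for Hcrt and 0.29 for Pmch. The levels thus rose through in-range fractions 2, 4 and 5, and the dip rests on the out-of-range array of fraction 3. Tph2, Slc6a4 and Fev, markers of the serotonergic raphe neurons that lie at the midline of the hindbrain, had their highest sagittal levels in fraction 4. For Pmch, fractions 3 and 5 differed by 0.01, under the spot error.

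The 3 peptides of the arcuate nucleus shared the last horizontal fraction. Agrp, a hunger peptide that blocks melanocortin receptors, had horizontal levels of -2.12, -1.63, -2.16, -2.58, -2.86 and 3.34. Fraction 6 held 90.4% of its signal and was 6.20 log2 units above fraction 5 (spot error 0.17, 73.5-fold), which was the lowest of the series. Its horizontal position had an adjusted p of 0.0688 in limma, and was called under 3 of 15 other settings and in 0 of 22 fits without 1 array. In the coronal series Agrp was 0.27 in fraction 6 and at most -1.86 elsewhere. In the sagittal series it was highest in fraction 4, at -0.47, followed by fraction 3, at -1.14, and fraction 6 at the side, at -1.30. Coronal fraction 7 was 3.29 log2 units below fraction 6.

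Ghrh, which drives growth hormone release, had horizontal levels between -2.83 and -1.31 in fractions 1 to 4, of -0.58 in fraction 5 and of 2.56 in fraction 6, each fraction above the one before. Fraction 6 was 3.14 log2 units above fraction 5 (8.81-fold) and held 78.4% of the signal. Horizontal position was called (limma, adjusted p = 0.0280), and was lost without horizontal fraction 1 (adjusted p = 0.0782), 2 (0.0667), 5 (0.0536) or 6 (0.245), and with the in-range arrays only (0.903). Over all 39621 probes the horizontal calls fell from 2604 to 9, 569, 396, 1115 and 13 under these settings. Its coronal level was 0.99 in fraction 6 and at most -0.98 in the other 9. In the sagittal series Ghrh was 0.04 in fraction 4 and -0.64 in fraction 3, and at most -1.46 in the rest.

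Pomc, the precursor of melanocortins, adrenocorticotropin and beta-endorphin, varied less. Its coronal levels lay between 0.16 and 1.02, with the highest value in fraction 6, which held 14.2% of the signal. Horizontal levels were 1.72, 0.94, 0.79, 0.77, 0.68 and 2.66, high at both ends of the series. Sagittal levels were 0.22, 0.17, 0.28, 0.69, 0.51 and 1.79, highest at the side rather than in the middle. In that fraction, number 6, 33.8% of all probes were highest. The limma adjusted p was 0.0235 for horizontal position and 0.0219 for the sagittal linear term, an increase of 1.49 ± 0.382 log2 units (SE) over the series. The horizontal call was lost in limma without horizontal fraction 1 (adjusted p = 0.0706), 2 (0.0514) or 6 (0.117), and the sagittal call without sagittal fraction 2 (0.0507) or 6 (0.681). Over all 39621 probes, horizontal calls fell from 2604 to 9, 569 and 1115 under these settings, and sagittal linear calls from 4046 to 3150 and 0. With the in-range arrays only, the adjusted p was 0.411 for horizontal position and 0.0642 for the sagittal linear term. Horizontal position was also lost in limma without scaling (0.144), and the sagittal term with median centring (0.0556), no scaling (0.380), the series alone (0.0525) or a linear term alone (0.178). Over all probes there were 2302 horizontal calls without scaling, and 1681, 2765, 0 and 4 sagittal linear calls under the 4 sagittal settings. With the in-range arrays there were 13 and 3435.

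Some markers of neighbouring tissue were also high in horizontal fraction 6. Of 10 anterior pituitary genes, 6 were well above background in horizontal fraction 6, against 1 to 4 in every other fraction of the 3 series, and their summed level was 3.20 there, mostly that of Cga, and between -2.06 and -0.17 in the other horizontal fractions. Cga, the common subunit of the pituitary glycoprotein hormones, was 3.01 in horizontal fraction 6, -0.80 in coronal fraction 6, -2.30 and -0.88 in sagittal fractions 3 and 4, and not well above background in the other 18 fractions. Tshb, the subunit of thyrotropin, and Pitx1, a pituitary transcription factor, were also highest of their series there, at -2.16 and -0.84. Gh, Prl and Lhb, which encode growth hormone, prolactin and a gonadotropin subunit, were well above background there at -4.28, -3.51 and -2.41, below their levels of -3.95, -3.16 and -0.91 in horizontal fraction 2. Fshb, Tbx19 and Pou1f1, the first a gonadotropin subunit and the others pituitary transcription factors, were not well above background in that fraction. The 5 meningeal fibroblast genes were all highest in horizontal fraction 6, with a summed level of 7.30 against 4.87 to 6.10 in the other horizontal fractions. In the other series their summed level was highest in other fractions than Agrp and Ghrh, namely coronal fraction 4 (6.74, against 5.56 in fraction 6) and sagittal fraction 6 (6.55, against 5.58 in fraction 4). From sagittal fraction 5 to 6 Agrp rose from -2.46 to -1.30, while Ghrh was -1.46 and -1.50. Their next highest horizontal sum was 6.10 in fraction 1, where Pomc was also next highest. All 5 were highest in sagittal fraction 6, as Pomc was and as were 33.8% of all probes. Of the 5, Lum was called for horizontal position and the sagittal linear term, as Pomc was (limma, adjusted p = 0.0284 and 0.0128), and the other 4 for neither. In the coronal series 4 of the 5 (Col1a1, Col1a2, Dcn and Slc6a13) were highest in fraction 4, where Pomc was 0.48 against 1.02 in fraction 6. The part of these tissues in the levels of Agrp, Ghrh and Pomc was not tested.

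**Figure D4:**
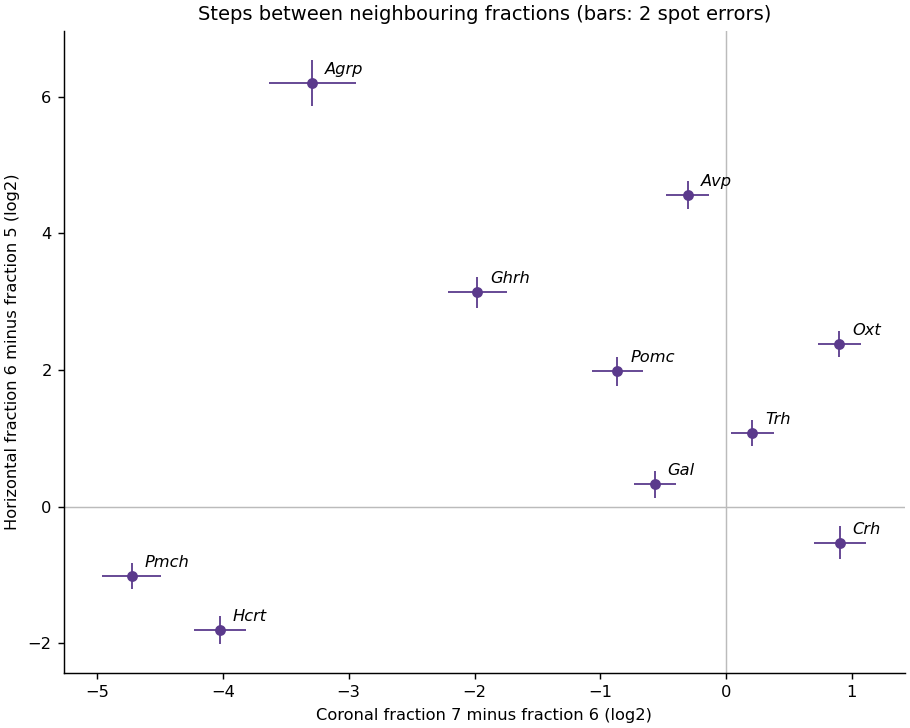
Difference in level (log2) between coronal fractions 7 and 6 (horizontal axis) and between horizontal fractions 6 and 5 (vertical axis) for each of the 10 genes, with bars of 2 spot errors in each direction and 1 array per fraction. Hcrt and Pmch lie at the lower left (-4.02 and -1.80, -4.73 and -1.01), Agrp at the upper left (-3.29 and 6.20) and Oxt at the right (0.90 and 2.39).

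The other 3 genes were spread over more of the brain. Trh, which stimulates thyrotropin release, had coronal levels of 2.27 in fraction 1, 2.37 in fraction 6, 2.58 in fraction 7 and 2.97 in fraction 10, with a lowest value of -0.78 in fraction 3. Fraction 10 held 23.0% of the coronal signal, and all 4 olfactory bulb markers were highest there as well, with a summed level of 4.91 against -0.57 to 1.21 in the other 9 fractions. What part the olfactory bulb has in the Trh level was not tested. Its horizontal levels were -1.37, -0.18, 0.83, 1.53, 2.11 and 3.20, each above the one before. This was called in limma (adjusted p = 0.0424), close to the threshold, and the call was lost on leaving out any 1 of the 6 horizontal or 6 sagittal arrays, or coronal fraction 4 or 5, with adjusted p between 0.0508 and 0.124. Over all probes these fits gave between 9 and 2245 horizontal calls, against 2604 with every array. The Trh call was also lost in limma with the in-range arrays only (0.997) or no filter on dim probes (0.0563), where 13 of 39621 and 1484 of 55600 probes were called. Coronal position of Trh had an adjusted p of 0.0856 in limma, and of 0.0014 without coronal fraction 1.

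Gal, a peptide found in many neuron types, had its highest coronal level, 3.42, in fraction 1, and its next highest, 2.93, in fraction 6. Fraction 1 held 24.8% of the coronal signal, and the 5 Hox genes, which mark the hindbrain and spinal cord, had their highest summed level, 5.57, in the same fraction. Of the 5, 4 were highest there, and Hoxd3 was highest in fraction 10, at -1.11 against -1.20 in fraction 1. Horizontal levels of Gal were 0.28, 0.61, 0.81, 2.21, 2.40 and 2.73, and sagittal levels were 0.48, 1.79, 2.14, 2.33, 2.01 and 1.42. None of its tests was called (limma, horizontal adjusted p = 0.0716), although horizontal position was called under 2 of 15 other settings and in 2 of 22 fits without 1 array.

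Crh, which starts the stress response, varied least, with an SD of 0.442 over the 22 fractions. Its levels lay between -0.91 and 0.76 in the coronal series, -0.91 and 0.49 in the horizontal series and -0.47 and 0.33 in the sagittal series. Coronal fraction 1 was highest and fraction 7 followed at 0.53, a gap of 0.23 (spot error 0.10) that turned round under median centring and no scaling. No test called Crh, with adjusted p of 0.451, 0.419 and 0.873 for coronal, horizontal and sagittal linear position.

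Levels of the genes across the 22 fractions were set against each other as a description. The fractions are shared by all genes and come from 3 brains. Hcrt and Pmch were the most alike pair, with a Pearson r of 0.90 over 22 fractions and of 0.89 over the 10 coronal, 0.96 over the 6 horizontal and 0.88 over the 6 sagittal fractions. Next came Avp with Pmch (0.84), Avp with Oxt (0.82) and Agrp with Ghrh (0.82). Agrp and Pomc had an r of 0.76 over all fractions but 0.48 in the sagittal series. Crh had values from -0.08 with Agrp to 0.49 with Trh, and Pomc had values of 0.05 with Trh and 0.06 with Gal.

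**Figure D5:**
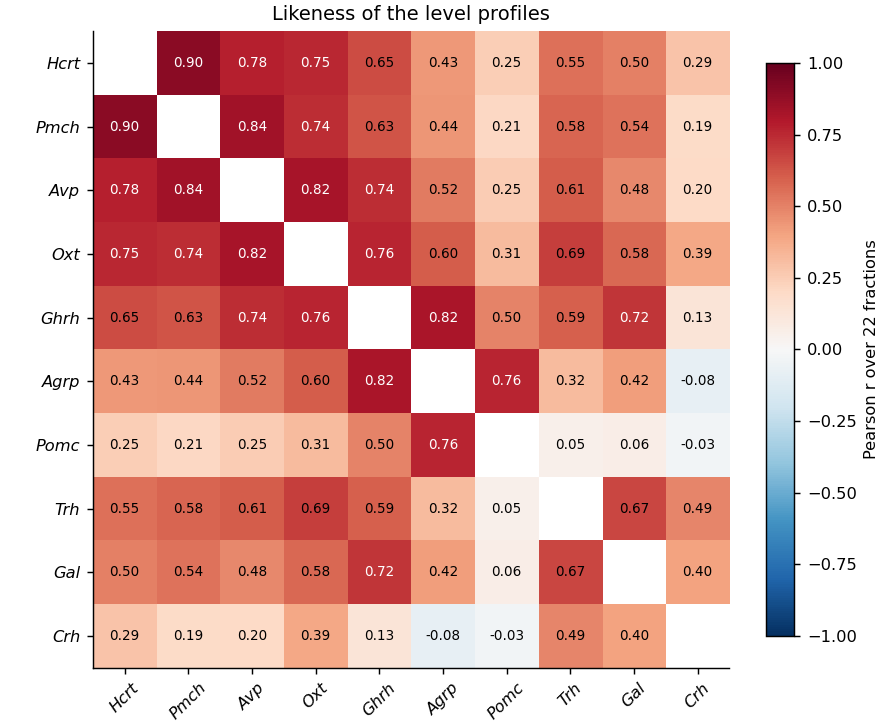
Pearson r of the level profiles of each pair of genes over the same 22 fractions, as numbers and colours. Hcrt and Pmch reached 0.90, Avp and Pmch 0.84, Avp and Oxt 0.82, Agrp and Ghrh 0.82, and Pomc and Crh were least like the rest.

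Among all genes detected in every series, the 3 most like each member were listed. Fezf1, a transcription factor of the developing forebrain and ventromedial hypothalamus, was first for Oxt (r = 0.93 over 22 fractions) and Avp (0.88) and ranked 3 for Hcrt (0.81). It was well above background in 8 fractions, coronal 6 and 7, horizontal 5 and 6 and sagittal 2 to 5. Hcrt was most like Npw (0.91), which encodes neuropeptide W, and then Pmch. Avp was next most like Lamb3 (0.84), a laminin subunit. Pmch was most like Hcrt, Avp (0.84) and Npw (0.81), and Oxt after Fezf1 was most like Avp (0.82) and Ghrh (0.76).

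Agrp was most like Cga (0.91), followed by Ghrh (0.82) and Nkx2-4 (0.77), and Ghrh was most like Krt90 (0.86), Pjvk (0.86) and Cga (0.84). Gal was most like Gpx3 (0.92), Scg2 (0.88) and Mrap2 (0.88). The genes most like Pomc were Dnase1l1 (0.90), Apoc3 (0.89) and A4galt (0.89), all highest in horizontal fraction 6 and sagittal fraction 6. Trh was most like Krt9 (0.87), Xkrx (0.85) and Kcna5 (0.82), all highest in coronal fraction 10, and Crh was most like Stac (0.74), Gpc5 (0.73) and Isca1 (0.70).

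Genes of the same pathway were counted in the same fits. Of 20 receptors and binding proteins of these peptides, 16 were tested, and 5 were called for coronal position and 3 for horizontal position, against 19.8% and 6.57% of all probes. Galr1, a galanin receptor, was highest in coronal fraction 2, at -0.71, and its probe was not clear of background in fractions 8 to 10 of that series (limma, coronal adjusted p = 0.0002, horizontal 0.0098). Of all probes, 29.8% were highest in coronal fraction 2, whose array had its spike-in slope out of range. Mc3r, a melanocortin receptor, was highest in coronal fraction 6, at -0.16, and in horizontal fraction 6, at -0.62 (limma, adjusted p = 0.0050 and 0.0152). Avpr2, the vasopressin receptor known from the kidney, and the corticotropin-releasing hormone receptors Crhr1 and Crhr2 were also called for coronal position (limma, adjusted p = 0.0034, 0.0163 and 0.0393), with their highest fractions 2, 6 and 7, and Crhr1 for horizontal position (0.0395).

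All 16 genes of prohormone processing and secretory granules were tested, and 3 were called for coronal position (Pcsk2, Scg3 and Cadps2) and 2 for horizontal position (Scg2 and Chga), against the same 19.8% and 6.57% of all probes. In the coronal series 7 of the 16 were highest in fraction 6, and in the horizontal series 8 were highest in fraction 5 and 6 in fraction 6, where 7.21%, 16.0% and 14.9% of all probes were highest. Scg2, a granin of secretory granules, had horizontal levels of 3.22 in fraction 1 and 5.61 in fraction 6 (limma, adjusted p = 0.0181). Pcsk2, a convertase that cuts prohormones, was highest in coronal fraction 6, at 4.67 (limma, adjusted p = 0.0081).

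Of 16 other peptide genes of the hypothalamus, 15 had a probe and 13 were tested, with 5 called for coronal and 1 for horizontal position (all probes 19.8% and 6.57%). Nmu, neuromedin U, was 0.00 in coronal fraction 1 and at most -3.15 in the other 9 (limma, adjusted p = 0.0068). Npy, neuropeptide Y, which arcuate neurons make together with Agrp, was 3.99 in coronal fraction 6 and highest in fraction 10, at 4.31 (limma, adjusted p = 0.0100), and its horizontal level was 3.74 in fraction 6 and 3.99 in fraction 5. Npy thus had no single horizontal peak like that of Agrp. Vip, Prok2 and Grp were called for coronal position (limma, adjusted p = 0.0090, 0.0276 and 0.0495) and Cartpt for horizontal position (0.0485).

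Of 22 transcription factors of the hypothalamus, 19 were tested, and 9 of them were highest in horizontal fraction 6, as were 14.9% of all probes. In the coronal series only 2 of the 19 were highest in fraction 6, where 7.21% of all probes and 6 of the 10 peptides were, while 3 were highest in fraction 1. Limma called 8 for coronal position, 5 for horizontal position and 1 for the sagittal linear term, against 19.8%, 6.57% and 10.2% of all probes. Those with the smallest adjusted p in limma were Dlx1 (0.0001), Six3 (0.0056), Foxb1 (0.0089), Nkx2-4 (0.0186), Arnt2 (0.0193, sagittal linear term) and Lhx9 (0.0202). Their highest coronal fractions were 10, 7, 5, 1, 9 and 6 in that order. Nkx2-1, which is needed to form the ventral hypothalamus, was detected in fractions 5 to 8 of the coronal series and 4 to 6 of the horizontal series and in no other fraction of the 2 series. Its highest horizontal level was -1.59 in fraction 6, beside the peaks of 7 of the 10 peptides. The labels name whole brain and not hypothalamus, so no fraction is a sample of that region.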

How the data were processed

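Per the file headers, the authors scanned 1-colour Agilent arrays (Cy3) and extracted processed intensity per spot, with background subtracted, in Feature Extraction 10.10.1.1. The log2 table that they deposited holds log2 processed intensities scaled by each array's 75th percentile (100% of matched values within 0.02 log2 units) and served as an alternative. Control and outlier spots were left out, spots of a probe were averaged as log2 values, and the same scaling was used for 55600 probes. Symbols came from a RefSeq table of another assembly, used for names only, with 26553 of 28087 RefSeq probes matched. A gene was read from its RefSeq probe with the highest median over 22 arrays, and a probe was detected where the authors' flag marked a spot well above background. The 39621 probes detected in each series entered limma 3.58.1 (R 4.3.3), in 1 model of 9 coefficients with a linear and a quadratic slab term per series and 13 residual degrees of freedom. P-values were adjusted by Benjamini-Hochberg over all probes, with a threshold of 0.05. They measure scatter around smooth curves, not the spread between animals, and with 1 array per fraction their number bounds the precision. Pooled slabs were placed at their midpoint. The code was tested on simulated data. Likeness was the Pearson r over 22 fractions, naming 3 genes per member. From each pathway list up to 6 genes past at least 1 test were named, in order of smallest adjusted p. Members, lists and tests were chosen with earlier results of these data known. No array lacks a group, and 0 columns of the log2 table were left unused. Python 3.11.15, numpy 2.4.6, pandas 2.3.3 and matplotlib 3.10.9 were used.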

Additional observations from a re-analysis of the deposited data

Results flagged for a closer look

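Of 30 profiles (10 genes in 3 series), 7 values stood apart from the other fractions of their series, with a gap to the nearest value that was large for the range of the series (Dixon's 95% limit). Chance flags about 1 in 20 groups of replicates, and fractions are positions and not replicates, so a local peak also meets this limit. In coronal fraction 6 these were Hcrt (3.47), Agrp (0.27) and Ghrh (0.99), each above the rest. Agrp also stood above the rest in horizontal fraction 6 (3.34). In the sagittal series Pomc stood above the rest in fraction 6 (1.79) and Crh in fraction 3 (0.33), while Pmch in fraction 1 (-5.68), where it was not well above background, stood below. The arrays of sagittal fractions 1 and 3 had the spike-in slope out of range, and those of the other flagged fractions did not.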

How the results depend on the processing

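Some highest fractions moved with the processing. With no scaling, the highest coronal fraction became 7 for Trh and Crh, the highest horizontal fraction 4 for Gal and the highest sagittal fraction 3 for Pmch and Gal. Pmch moved likewise with normexp and quantile normalization, and Crh with median centring. In the in-range arrays Crh moved to coronal fraction 7 and Gal to 6, and in the sagittal series Avp, Trh and Crh to fraction 4 and Hcrt to 5. These arrays leave out coronal fractions 1 and 2 and sagittal fractions 1 and 3. Each gene that moved had been highest in coronal fraction 1 or sagittal fraction 3, so it had to move. Counts of genes sharing a highest fraction changed by over 1.5 times only for the sagittal series, where 7 genes shared fraction 4 in the in-range arrays, an alternative chosen after seeing the data, instead of 4. That rise follows from taking out sagittal fraction 3. Leaving out 1 fraction at a time gave 4 to 7 genes sharing a coronal fraction, 7 to 9 a horizontal one and 4 to 8 a sagittal one, the last without sagittal fraction 4. Here too a gene whose highest fraction is left out must move. The test calls were less stable. Numbers in brackets after a setting are the calls over all 39621 probes under it. For coronal position, 0 genes were called with normexp background correction (9192), slide as a block (1598), the arrays of the series alone (635) or a linear term alone (2821). The count was also 0 with probes detected in all 22 fractions (8458 of 25815), which leave out Avp and Pmch, and 2 with a cubic coronal term (6454). With the in-range arrays (4129) the count was still 1, but the gene was Trh. For horizontal position, 0 were called with the a107 spike-in as a covariate (38), the in-range arrays (13), the series alone (0) or a linear term alone (206). For the sagittal linear term, 0 were called with median centring (1681), no scaling (2765), the in-range arrays (3435), the series alone (0) or a linear term alone (4). The sagittal quadratic count was 0 under every alternative run. Leaving out 1 array gave 1 to 2 calls for coronal position, 0 to 6 for horizontal position (0 without horizontal fraction 1, 2 or 6 and 1 without fraction 5), 0 to 1 for the sagittal linear term (0 without sagittal fraction 2 or 6) and 0 to 0 for the quadratic term. Over all probes, leaving out 1 array gave 4871 to 10713, 9 to 6530, 0 to 4965 and 0 to 394 calls in these 4 tests. The causes were not tested. Over all probes, and apart from leaving out single arrays, the calls ranged from 635 to 9192 for coronal position (main 7855), 0 to 5379 for horizontal position (2604), 0 to 6240 for the sagittal linear term (4046) and 0 to 911 for the quadratic term (12). The files hold no mean spot signal, so normexp was run on the median signals. Out-of-range arrays lie at one end of the horizontal series, so spike-in response and position cannot be told apart there. No paired analysis was possible because fraction numbers are positions in different animals and planes.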
